A study of Homo sapiens with 12 samples.

Results

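The collagen genes of KBM-7 cells were described by the histone marks called along them. Members were the protein-coding genes on chromosomes 1 to 22 whose symbol reads COL, digits, A, digits, which gave 42 of 19126 protein-coding genes on these chromosomes. They comprised 11 genes of fibrillar collagens, 4 of the type IV collagens of basement membranes and 27 of other types. The other types were 5 microfibril genes (type VI), 1 anchoring fibril gene (COL7A1), 3 network genes (types VIII and X), 10 genes of fibril-associated collagens, 4 of transmembrane collagens, 2 of multiplexins and 2 that were left unclassed (COL26A1 and COL28A1). KBM-7 is a human line from chronic myeloid leukaemia and carries a nearly haploid set of chromosomes. Every library came from this line in culture with serum and the labels name no treatment, so there was no treatment or genotype to compare. Chromatin was crosslinked, sheared and immunoprecipitated once for each of 9 histone modifications, and 3 inputs were sequenced beside them. The values are therefore set against all protein-coding genes of the same libraries, with no replicate and no test.

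Collagens are proteins of the extracellular matrix built from polypeptide chains wound into a triple helix. Fibrillar collagens form the fibrils of bone, skin, tendon and cartilage, type IV collagens form the sheet-like network of basement membranes, and the remaining types link fibrils, anchor epithelia or sit in the plasma membrane. Fibroblasts, bone and cartilage cells and epithelia are their main producers, and blood cells are not known as a major source. H3K4me3, H3K9ac and H3K27ac are marks of active promoters, and H3K27ac also of active enhancers. H3K4me1 and H3K4me2 mark enhancers and the surroundings of promoters, and H3K79me2 and H3K36me3 lie along transcribed genes. H3K27me3 is deposited by Polycomb repressive complex 2 and is found over silent developmental and lineage genes.

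The deposited data were intervals called per mark on GRCh38, with no read numbers or signal attached. Depth is therefore unknown, and an uncovered gene is only a gene without a call. Intervals that touched or overlapped were joined into regions. On chromosomes 1 to 22 the sets held between 3198 regions (H3K27ac) and 111603 regions (H3K27me3), with median widths from 600 to 5000 bp. The interval lists of H3K36me3 and H4K16ac were identical and count here as 1 set, H3K36me3/H4K16ac, which left 8 sets. Whether its intervals came from the H3K36me3 or the H4K16ac library cannot be told apart, so it is not read as either mark. Marker genes of blood and of other tissues were read beside the labelled blood origin. Their lists were chosen with earlier results of these data known, so the counts describe the line and do not test its origin. All 12 of 12 leukocyte and progenitor markers, among them PTPRC, CD34 and RUNX1, had H3K4me3 within 1 kb of the start without H3K27me3, and all 12 had H3K27ac over the span and 5 kb. Over all protein-coding genes, 49.3% had H3K4me3 alone at the start, 25.2% H3K27me3 alone, 3.95% both and 21.5% neither, and 10.9% had H3K27ac over the span and 5 kb. Of 10 fibroblast and mesenchyme markers, 1 (VIM) had H3K4me3 alone at the start, 5 had H3K27me3 alone, TWIST1 had both and 3 had neither. The epithelial list had 1 (KRT18), 4, 0 and 1 of 6 in the same order, and the endothelial list 0, 3, 0 and 2 of 5.

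Collagen genes were covered by H3K27me3 more often than genes at large, and had each of the other 7 sets less often. Over the span and 5 kb on either side, 36 of 42 collagen genes had H3K27me3, against 44.3% of all genes. H3K4me3 was found at 8 of 42 collagen genes, against 59% of all genes. H3K9ac was found at 10, against 63.5%, and H3K27ac at 1 (COL23A1), against 10.9%. H3K4me2, the most frequent of the remaining sets, was found at 26 collagen genes, against 78.9% of all genes. H3K4me1 was found at 16, against 57.1%, H3K79me2 at 6, against 48%, and H3K36me3/H4K16ac at 15, against 56.7%. No collagen gene was free of all 8 sets. Collagen genes are long, with a median span of 133 kb (range 16.8 to 494 kb), against 24.5 kb for all genes. A longer window has more room for an interval, so the same counts were set against the 10600 protein-coding genes of at least 20 kb, a length that 40 of the 42 collagen genes reached. Of those 40, 35 had H3K27me3, against 48.6% of long genes. Of the same 40, 8 had H3K4me3 (66.5% of long genes), 10 had H3K9ac (70.5%), 1 had H3K27ac (12.2%), 24 had H3K4me2 (87.4%), 15 had H3K4me1 (64.3%), 6 had H3K79me2 (54.6%) and 15 had H3K36me3/H4K16ac (65.1%). For each set the collagen share lay on the same side of the long genes as of all genes.

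**Figure D1:**
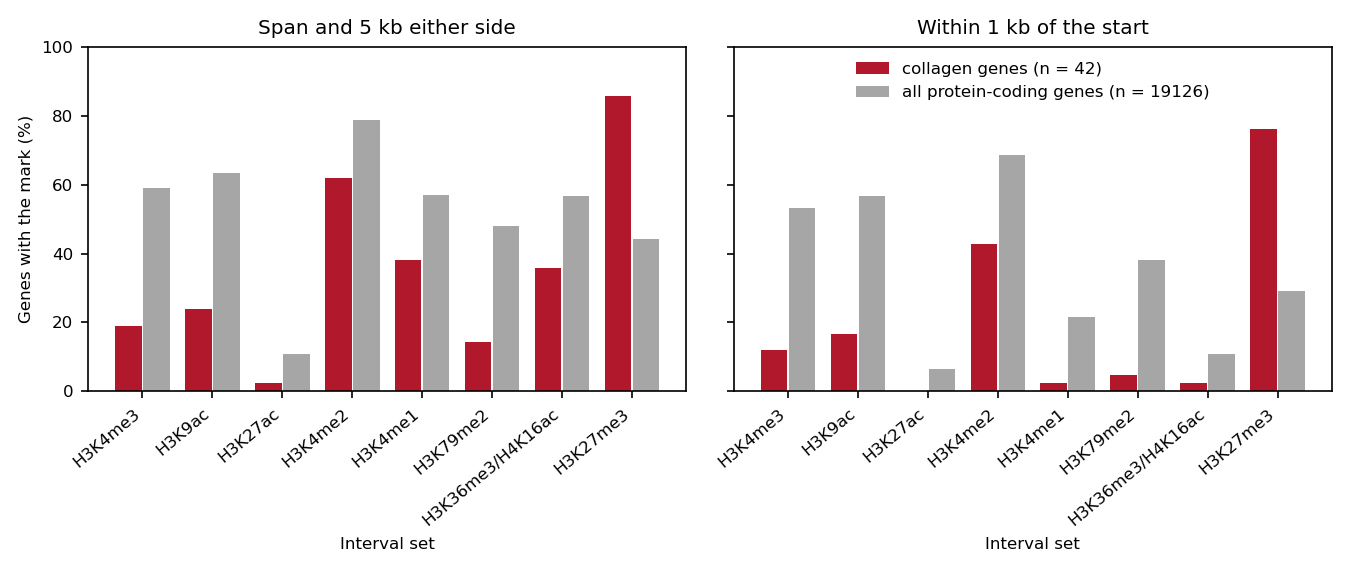
Percentage of genes with each interval set over the span and 5 kb on either side (left panel) and within 1 kb of the start (right panel), for collagen genes (red) and all protein-coding genes (grey). The red bar is above the grey bar for H3K27me3 (36 of 42 genes, against 44.3%) and below it for the other 7 sets in each panel.

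The start of transcription is where H3K4me3 and H3K27me3 separate active from Polycomb-covered genes. A window of 1 kb on either side of it does not grow with gene length. Listed starts with their strand were at hand for 30 members. Where a gene had several listed starts, a mark at any of them counted, for collagen and all genes alike. The joined window thus grew with the number of starts. COL21A1, with 3, had neither mark at its outermost start and H3K27me3 at an inner one. For COL1A1, COL1A2, COL2A1, COL3A1, COL5A2, COL6A1, COL6A5, COL8A1, COL9A3, COL14A1, COL20A1 and COL22A1 both annotated ends were used, and a mark at either end counted. The same was done for every other gene without a listed start, in the lists and among all genes. A start was listed for 15101 of the 19126 protein-coding genes. H3K27me3 lay at the start of 32 of 42 collagen genes, against 29.1% of all genes. H3K4me3 lay at the start of 5, against 53.3%, and H3K9ac at the start of 7, against 56.7%. H3K4me2 was called at the start of 18 collagen genes (68.7% of all genes), H3K79me2 at 2 (38.1%), H3K4me1 at 1 (21.7%), H3K36me3/H4K16ac at 1 (10.8%) and H3K27ac at 0 (6.58%). Of the combinations, H3K27me3 without H3K4me3 was the state of 31 collagen starts, against 25.2% of all genes. H3K4me3 without H3K27me3 was the state of 4 (COL5A2, COL6A1, COL6A2 and COL26A1), against 49.3%. COL5A2 has no listed start, and its call lay at the annotated end beside WDR75, so it is not known to mark a COL5A2 start. COL27A1 alone had both, against 3.95% of all genes. Neither mark was called at the starts of COL3A1, COL8A2, COL9A2, COL10A1, COL23A1 and COL24A1, which are 6 genes against 21.5%.

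The 30 collagen genes with a listed start gave the same order without the genes whose strand was not at hand. Within 1 kb of a listed start, 23 of them had H3K27me3, against 27.1% of the 15101 genes with a listed start, and 3 had H3K4me3, against 56.2%. H3K9ac was found at 5 (59.4%), H3K4me2 at 12 (70.6%), H3K79me2 at 1 (40.6%), H3K36me3/H4K16ac at 1 (5.97%), H3K4me1 at 0 (20.8%) and H3K27ac at 0 (6.79%).

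The sequences before 4 collagen starts are given as an example of each state: H3K4me3 alone (COL6A2), both marks (COL27A1), H3K27me3 alone (COL13A1) and neither (COL10A1). Each is the 250 bases before the start from RefSeq, GRCh38.p14, written 5′ to 3′ on the gene's strand, with the CG dinucleotides in capitals. They lie at chr21:46097862-46098111 (plus strand, COL6A2), chr9:114155287-114155536 (plus, COL27A1), chr10:69801656-69801905 (plus, COL13A1) and chr6:116217145-116217394 (minus, COL10A1).
COL6A2: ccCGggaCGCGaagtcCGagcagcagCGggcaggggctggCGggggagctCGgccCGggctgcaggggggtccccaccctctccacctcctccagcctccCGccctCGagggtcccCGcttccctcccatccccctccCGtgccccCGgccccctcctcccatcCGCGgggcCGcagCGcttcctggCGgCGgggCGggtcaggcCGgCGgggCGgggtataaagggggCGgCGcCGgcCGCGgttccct
COL27A1: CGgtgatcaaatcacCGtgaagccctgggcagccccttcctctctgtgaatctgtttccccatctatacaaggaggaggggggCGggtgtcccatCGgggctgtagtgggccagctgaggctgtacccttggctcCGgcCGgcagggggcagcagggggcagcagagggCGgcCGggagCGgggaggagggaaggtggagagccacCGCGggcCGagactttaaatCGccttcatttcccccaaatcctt
COL13A1: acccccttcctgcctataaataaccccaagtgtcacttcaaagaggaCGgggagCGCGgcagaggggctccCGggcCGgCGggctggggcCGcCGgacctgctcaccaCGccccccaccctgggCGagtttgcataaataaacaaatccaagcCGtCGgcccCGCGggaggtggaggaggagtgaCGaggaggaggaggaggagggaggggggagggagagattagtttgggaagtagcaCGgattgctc
COL10A1: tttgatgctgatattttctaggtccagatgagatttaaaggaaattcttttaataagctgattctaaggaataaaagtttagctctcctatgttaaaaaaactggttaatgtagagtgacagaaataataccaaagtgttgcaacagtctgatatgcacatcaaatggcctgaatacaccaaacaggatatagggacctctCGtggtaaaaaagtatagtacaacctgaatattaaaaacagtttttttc
The stretches held 28 CG dinucleotides at COL6A2, 13 at COL27A1, 16 at COL13A1 and 1 at COL10A1. At COL6A2, a chain of the microfibril collagen type VI, an H3K4me3 region of 1050 bp (chr21:46097701-46098750) covered the whole stretch. At COL27A1, a fibrillar collagen of cartilage, H3K4me3 began inside the stretch (chr9:114155401-114156450) and an H3K27me3 region ending at position 114156000 ran across it. COL13A1, a transmembrane collagen, lay in H3K27me3 over the full 2 kb window, and COL10A1, the collagen of hypertrophic cartilage, had no interval there.

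The window of 250 bases before to 50 after a start was compared over 41 starts of the 30 collagen genes and 21156 starts of 15101 genes. Its median number of CG dinucleotides was 18 in collagen genes and 21 in all genes, and its GC content 65.7% and 62.7%. A gene with several starts enters more than once, so windows are not independent. Collagen windows with H3K27me3 alone held a median of 19.5 CG (28 windows of 22 genes), against 9 in all windows of that state (4943). Those among them with H3K4me2 had 36.5 (8 windows of 7 genes), against 26 in all genes. These 8 include overlapping windows of COL5A1 with 36 and 37 CG. Those without H3K4me2 had 16.5 (20 windows of 16 genes), against 6. The letters TATAAA, sought on both strands, stood in 8 collagen windows (19.5%), against 9.51% of all windows. The letters GGGCGG, which contain a CG and were also sought on both strands, stood in 23 (56.1%), against 56.6%. The range was wide: COL18A1 had 46 CG at its outer start and COL4A1, COL4A2, COL8A2 and COL15A1 had 45 each. COL17A1, COL28A1 and the outermost start of COL10A1 had 1 each. COL8A2 and COL10A1 had neither mark, and the other starts named here had H3K27me3 alone.

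H3K27me3 also covered much of the gene bodies. A median of 59.7% of a collagen gene's span lay under H3K27me3, against 0% for all genes and 0% for long genes. Summed over genes, it covered 50.2% of the collagen spans and 26.95% of all spans. At least 50% of the span was covered in 24 of 42 collagen genes, against 23% of all genes and 22.1% of long genes. At least 90% was covered in 12, against 12% of all genes and 8.42% of long genes. The 5 largest shares were 100% at COL6A3 and COL20A1, 98.7% at COL13A1, 98.1% at COL16A1 and 97.8% at COL4A1. The longest single regions were 113.5 kb across the whole of COL6A3 (chr2:237319001-237432500), 89 kb across COL4A1 and COL4A2, 81.5 kb at COL18A1 and 77.5 kb at COL13A1. The region at COL18A1 (chr21:45345501-45427000) lay mostly before the outer start of the gene at position 45405165. In covered length over the span and 5 kb, the leading genes were COL14A1 with 234073 bp, COL19A1 with 217413 bp, COL4A2 with 198717 bp, COL5A1 with 187541 bp and COL23A1 with 182000 bp. H3K36me3/H4K16ac covered 2.20% of the summed collagen spans and 18.2% of all spans.

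**Figure D2:**
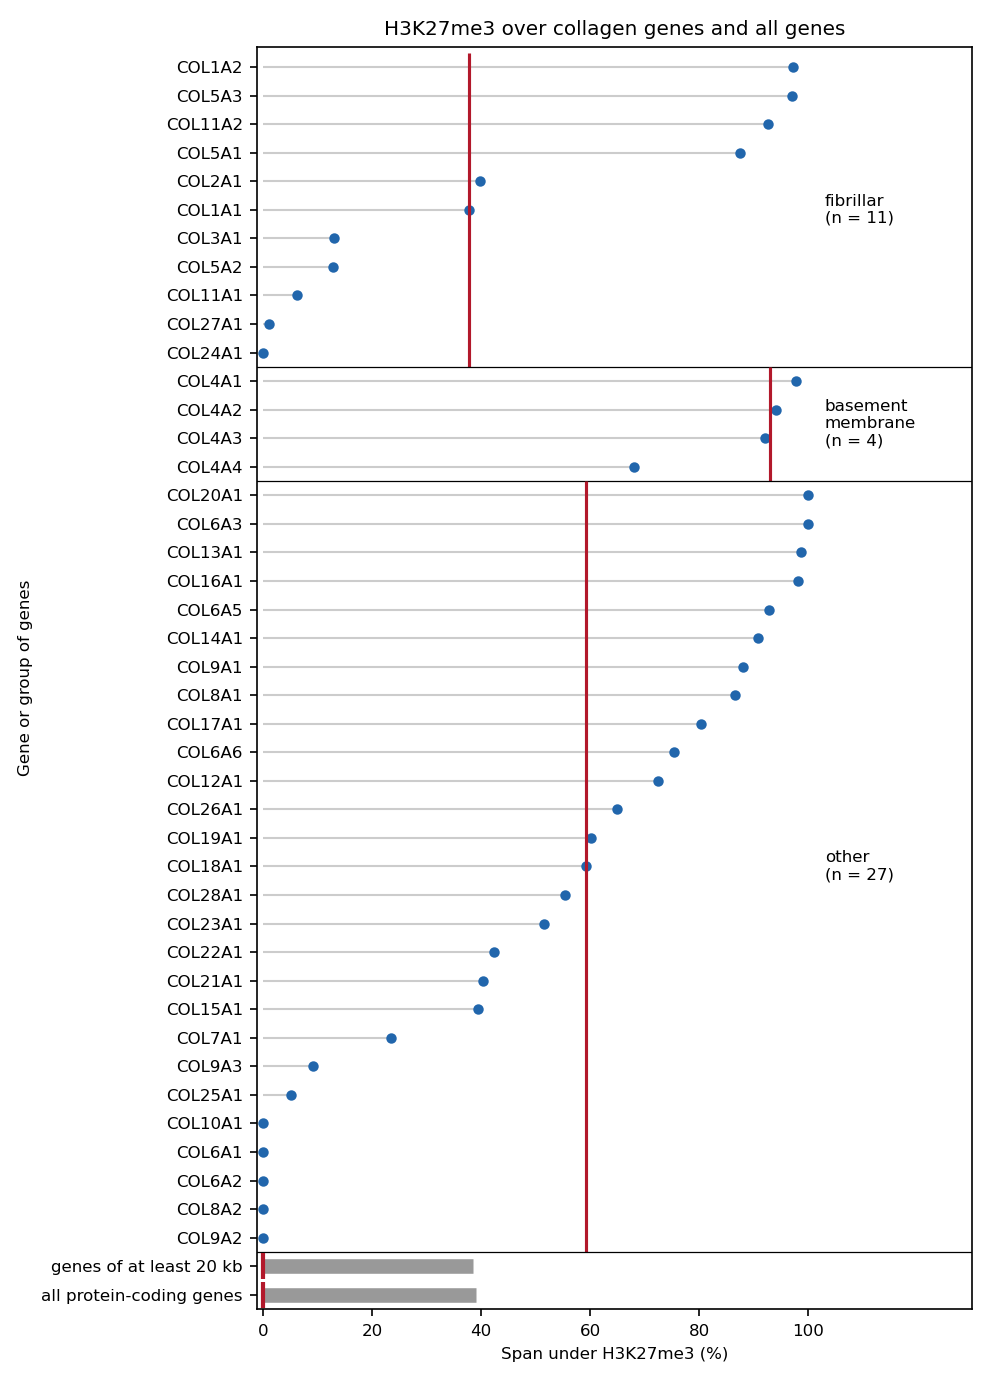
Share of the span under H3K27me3 for each collagen gene (points, by class), with the median of each class as a red line. The bottom rows give the middle 50% of long and of all protein-coding genes (grey bars), each with a median of 0% (red). Type IV genes sit between 68.0 and 97.8%, and fibrillar genes spread from 0 to 97.2%.

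All 4 type IV genes were covered by H3K27me3 over most of their span, against 22.1% of long genes with at least 50% covered. COL4A1 and COL4A2 encode the chains found in nearly all basement membranes, and COL4A3 and COL4A4 those of specialised membranes such as the kidney filter. H3K27me3 covered 97.8% of COL4A1, 94.1% of COL4A2, 92.0% of COL4A3 and 68.0% of COL4A4. All 4 starts had H3K27me3 over the full window and no other set. H3K27me3 was called at the start of 29.1% of all genes. The windows of COL4A1 and COL4A2 largely overlap, as do those of COL4A3 and COL4A4, so the 4 are not separate observations. Only COL4A2 had any other set in its span, with 1800 bp of H3K4me2 and 2700 bp of H3K4me1, at least 113867 bp from the start. Each pair is transcribed outward from a shared gap, and the bases between the 2 spans are shown because H3K27me3 ran across both gaps. The COL4A1-COL4A2 gap is chr13:110307158-110307283 and lay inside the 89 kb region chr13:110256001-110345000, and the COL4A4-COL4A3 gap is chr2:227164489-227164623. Both come from RefSeq, GRCh38.p14, and are written on the plus strand with CG in capitals.
COL4A1-COL4A2: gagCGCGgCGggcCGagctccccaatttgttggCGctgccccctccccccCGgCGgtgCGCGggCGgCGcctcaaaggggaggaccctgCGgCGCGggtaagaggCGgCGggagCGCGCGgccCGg
COL4A4-COL4A3: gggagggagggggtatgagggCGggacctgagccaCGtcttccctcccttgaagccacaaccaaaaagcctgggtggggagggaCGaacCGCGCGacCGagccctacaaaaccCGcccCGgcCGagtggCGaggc
The 126 bases of the COL4A1-COL4A2 gap held 20 CG, and the 135 bases of the COL4A4-COL4A3 gap held 11.

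Fibrillar genes ranged from nearly full cover by H3K27me3 to none. Their median share under H3K27me3 was 37.8%, against 0% for all genes. H3K27me3 alone marked 7 of 11 starts, against 25.2% of all genes. COL1A2, a chain of the type I collagen of bone and skin, was covered over 97.2% and had no other mark. Its partner COL1A1 was covered over 37.8%, and had 3450 bp of H3K4me2 and 1950 bp of H3K4me1, most of it within 1 kb of an annotated end. COL1A1 was the only member with H3K4me1 in its window, where both its ends counted; with both ends used for every member 4 had it, and with listed starts only 0. Among the type V chains, which set the diameter of type I fibrils, COL5A3 was covered over 97.1%, COL5A1 over 87.5% and COL5A2 over 12.8%. The annotated span of COL5A2 is 409214 bp and adjoins WDR75, against 203041 bp for COL5A1 and 50944 bp for COL5A3. COL11A2, a cartilage chain, was covered over 92.5%, whereas its partner COL11A1 was covered over 6.26%, in a region of 13 kb across the start and smaller ones further in. COL2A1, the main collagen of cartilage, was covered over 39.7%, and 300 bp of H3K4me3 (chr12:48001651-48001950) lay wholly within its H3K27me3. COL3A1, the collagen of vessel walls and soft organs, had 13.0% of its span covered, none of it within 1 kb of either end, and no other set.

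COL24A1 and COL27A1, the more recently described fibrillar genes, had the most bp under the H3K36me3/H4K16ac set among all members. COL24A1 had 109000 bp of it, 25.5% of a 427752 bp span, and no H3K27me3 nearer than 226233 bp. Its start had 1950 bp of H3K9ac, 2130 bp of H3K4me2 and 180 bp of H3K79me2 within the window, but no H3K4me3 call. COL27A1 had 21500 bp of H3K36me3/H4K16ac, with 1050 bp each of H3K4me3 and H3K9ac and 3150 bp of H3K4me2. H3K27me3 covered 6403 bp of its window and ended at position 114156000, and 600 bp of the H3K4me3 region lay under it. Whether both marks lay on the same chromosomes or in different cells of the culture cannot be told apart in bulk chromatin. Neither gene has another protein-coding gene within 5 kb.

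The type VI genes were divided. COL6A1 and COL6A2, both on chromosome 21, had no H3K27me3; the nearest region was 6453 bp from COL6A1 and 6612 bp from COL6A2. COL6A1 had 750 bp of H3K4me3, 1050 bp of H3K9ac, 2550 bp of H3K4me2 and 1000 bp of H3K36me3/H4K16ac. COL6A2 had 1050 bp of H3K4me3, 1800 bp of H3K9ac, 2250 bp of H3K4me2, 450 bp of H3K79me2 and 4500 bp of H3K36me3/H4K16ac. The chains that complete type VI microfibrils were under H3K27me3, over 100% of COL6A3, 92.8% of COL6A5 and 75.3% of COL6A6, and none of them had H3K4me3, H3K9ac or H3K4me2. COL6A6 had 6042 bp of H3K36me3/H4K16ac, of which 1933 bp lay outside other genes and the 1 kb around them. COL6A2 thus had H3K4me3 at its listed start, and COL6A1, which has no listed start, had it at an annotated end. The chains with which they assemble had H3K27me3 at the start, COL6A5 at both annotated ends for want of a listed start.

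Other collagens whose chains assemble together also differed. Of the type IX chains, which coat cartilage fibrils, COL9A1 was covered by H3K27me3 over 88.1%, COL9A3 over 9.17% and COL9A2 over 0%. At the start, COL9A1 and COL9A3 shared the state of H3K27me3 alone, COL9A3 with both annotated ends used, and COL9A2 had neither mark. Of the type VIII chains of the vessel wall and cornea, COL8A1 was covered over 86.5% and COL8A2 over 0%. COL8A2 had 6000 bp of H3K36me3/H4K16ac and 1262 bp of H3K79me2, of which 1568 and 0 bp were left once other genes and 1 kb around them were taken out. COL10A1 had 2500 bp of H3K36me3/H4K16ac alone, of which 0 bp were left. COL9A2 had a single set, 1800 bp of H3K4me2. The distance to the nearest H3K27me3 region was 298279 bp for COL8A2, 144715 bp for COL9A2 and 22409 bp for COL10A1.

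**Figure D3:**
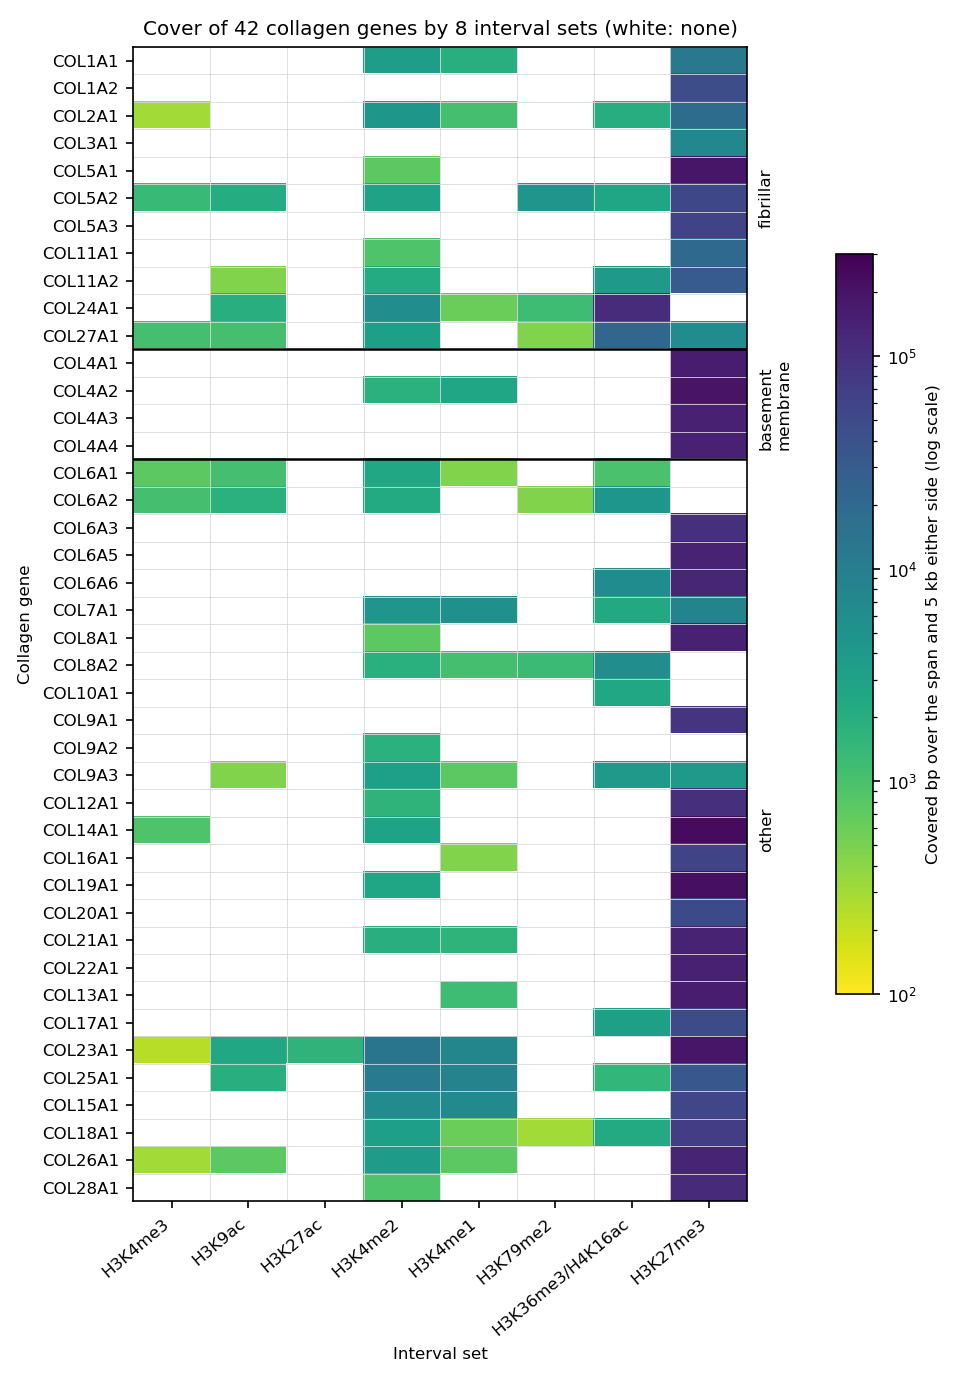
Covered bp of each interval set (columns) over the span and 5 kb on either side of each collagen gene (lines, by class), on a log colour scale with white for none. The H3K27me3 column is filled for 36 of 42 genes, H3K27ac only for COL23A1, and COL24A1 stands out with 109000 bp of H3K36me3/H4K16ac.

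The fibril-associated collagens, which bind to the surface of fibrils or to cell membranes, were mostly Polycomb-covered. H3K27me3 alone was the state of 9 of 10 genes, against 25.2% of all genes, at COL21A1 through an inner start only. The median share of the span was 66.3%, against 0% for all genes. COL14A1 (chr8:120124454-120373573) was covered over 90.8%, and a 900 bp H3K4me3 region (chr8:120216151-120217050) lay inside its span and wholly under H3K27me3. COL19A1 was covered over 60.1%, COL12A1 over 72.5%, COL22A1 over 42.4% and COL21A1 over 40.4%. COL7A1, which anchors the epidermis to the dermis, had 8000 bp of H3K27me3 at and just inside its start. It also had 4628 bp of H3K4me2 and 5378 bp of H3K4me1 at the opposite end, of which 600 and 1200 bp were left without the neighbouring genes.

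Among the transmembrane collagens and multiplexins, 3 genes carried the largest amounts of H3K4me2 and H3K4me1. COL23A1 had 13500 bp of H3K4me2 and 7500 bp of H3K4me1, COL25A1 had 10800 and 8250 bp, and COL15A1 had 6337 and 6787 bp. COL23A1 was the only member with H3K27ac, 1650 bp in 3 regions from chr5:178239001 to chr5:178241400, close to the end of the gene opposite its start and inside a 6000 bp H3K4me2 region. It also had 2483 bp of H3K9ac, of which 1800 bp lay outside PHYKPL and the 1 kb around it, and H3K27me3 over 51.6% of its span but not at its start. The 233 bp of H3K4me3 in its window belonged to a region within 1 kb of PHYKPL. COL25A1, found in neurons and amyloid plaques, had H3K27me3 over 5.15% of its span, including its start, and 1950 bp of H3K9ac, of which 3 of 4 regions lay at least 321958 bp from the start. COL15A1 and COL18A1, whose C-terminal fragments restrain vessel growth, had H3K27me3 over 39.5% and 59.3%, with H3K4me2 at the outer start of each. COL17A1, the transmembrane collagen of hemidesmosomes, was covered over 80.4%, and had 3215 bp of H3K36me3/H4K16ac, of which 267 bp were left without neighbouring genes.

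The remaining members counted with H3K4me3 at the start were COL26A1 and COL5A2, the latter at an annotated end and without a listed start. COL26A1 had an H3K4me3 region of 300 bp beside its start and 750 bp of H3K9ac in its window, with H3K27me3 over 64.9% of its span beginning beyond the window. COL28A1, the other unclassed gene, was covered over 55.4%, start included, and its only other set was 900 bp of H3K4me2. Inside its span COL5A2 had 12 H3K27me3 regions, such as chr2:189178001-189184500, and whether a COL5A2 start lies under one is not known. COL5A2 had 4661 bp of H3K79me2, 2100 bp of H3K9ac and 1350 bp of H3K4me3 at the annotated end that adjoins WDR75. None of that H3K4me3 or H3K79me2 was left when WDR75 and 1 kb around it were taken out, so the calls of the 2 genes cannot be told apart there. Taking other genes out in this way left H3K4me3 at 6 of the 8 members, H3K79me2 at 3 of 6 and H3K36me3/H4K16ac at 10 of 15. The counts for the other 5 sets, H3K27me3 at 36 included, did not change.

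H3K4me2 was the set that most often accompanied H3K27me3 at collagen starts. Of the 32 collagen starts with H3K27me3, 12 also had H3K4me2 (37.5%), against 41% of all starts with H3K27me3, so the collagen share lay near the background. The 12 were COL1A1, COL2A1, COL5A1, COL8A1, COL11A1, COL12A1, COL14A1, COL15A1, COL18A1, COL19A1, COL25A1 and COL27A1. For COL1A1, COL2A1, COL8A1 and COL14A1, which have no listed start, the marks were pooled over both annotated ends. COL2A1 counted through 39 bp of H3K4me2. H3K4me3 accompanied H3K27me3 at 1 of the 32 (COL27A1), against 13.6% of such starts in all genes. H3K9ac did so at 2 (COL25A1 and COL27A1), against 15.6%, H3K4me1 at 1 (COL1A1), against 7.49%, and H3K36me3/H4K16ac at 1 (COL11A2), against 2.55%. The COL11A2 region lay within 1 kb of RXRB, and 0 bp of it was left with other genes and 1 kb around them taken out. H3K79me2 and H3K27ac did so at 0, against 4.58% and 0.341%.

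**Figure D4:**
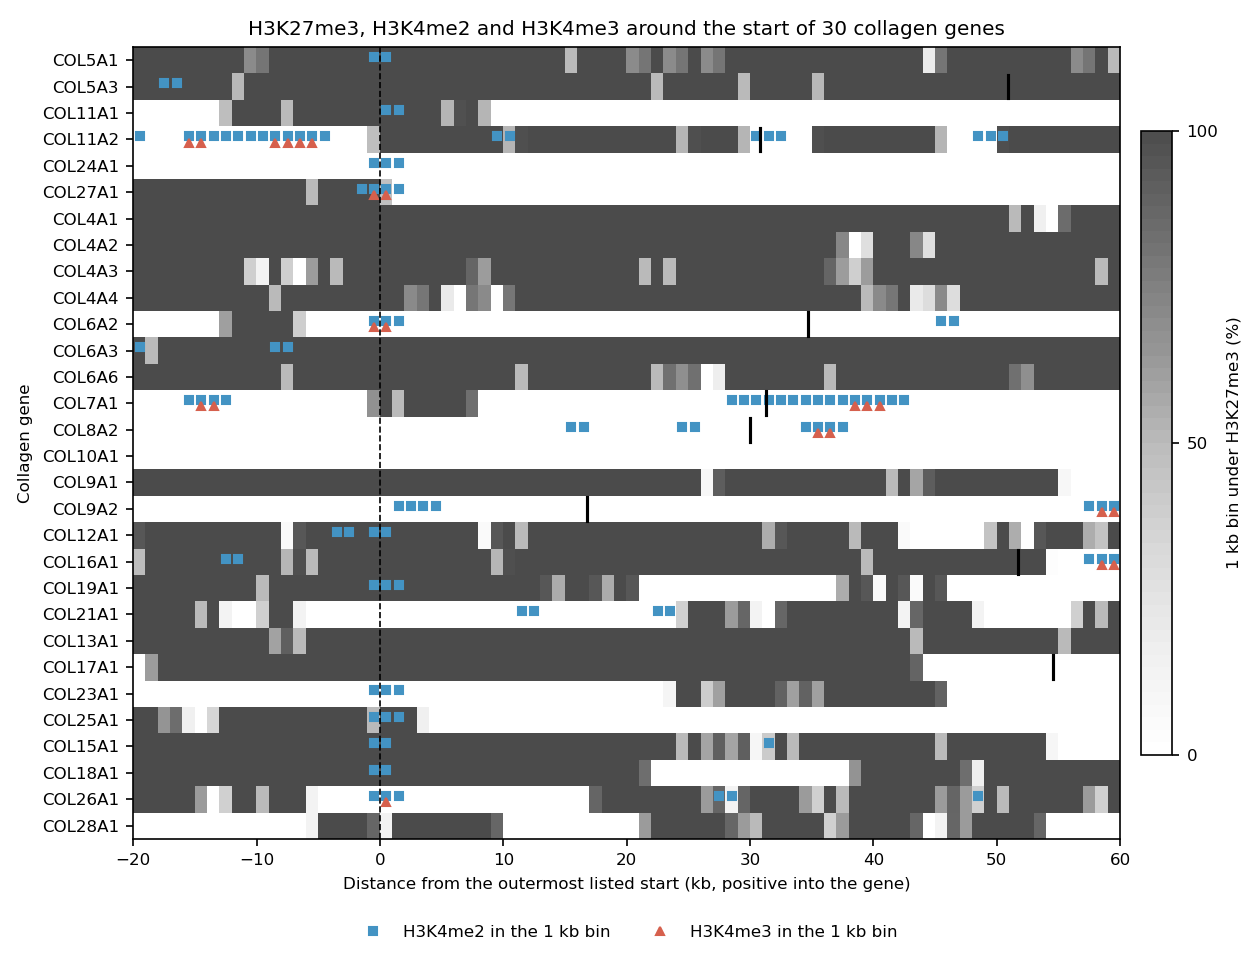
H3K27me3 in 1 kb bins (grey scale) from 20 kb before to 60 kb after the outermost listed start of 30 collagen genes, with bins that hold H3K4me2 (blue squares) or H3K4me3 (red triangles) and a black bar where the gene ends. H3K27me3 lies within 1 kb of a listed start in 23 of the 30 lines, which at COL21A1 is not the outermost start. H3K4me3 lies at the start only in COL6A2, COL26A1 and COL27A1.

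H3K27me3 was not limited to the starts. Averaged over the 30 genes with a listed start, it covered 66.7% of the 5 kb before the start and 67.8% of the 5 kb after it, against 25.9% and 22.1% in all genes. From 5 to 10 kb into the gene it covered 60.3%, against 21.4%, and from 20 to 50 kb, over the 25 genes that reach that far, 65.5%, against 23.2%. Even 5 to 10 kb before the start it covered 64.0%, against 29.2% in all genes. H3K4me2 cover was highest in the first 5 kb, with 10.3% there and 0.154% of the next 5 kb in collagen genes, against 30.2% and 4.59% in all genes. From 10 to 20 kb it was 0.851%, against 3.23%. H3K4me2 was not limited to starts either: of its 74 regions in the windows of all members, 50 lay over 1 kb from a listed start or, without one, an annotated end.

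The enzymes and chaperones that make collagen in the endoplasmic reticulum mostly had H3K4me3 at the start, unlike the collagens themselves. H3K4me3 alone stood at 17 of 20 starts of this list, against 49.3% of all genes. Among the 17, P3H4 and FKBP10 lie side by side, each with 2850 bp of H3K4me3 over the span and 5 kb, and may share a region. H3K27me3 alone stood at the other 3, against 25.2% of all genes: P3H2 (86.4% of its span covered), P4HA3 (64.5%) and COLGALT2 (100%). P4HA1, the catalytic subunit of prolyl 4-hydroxylase, had 4200 bp of H3K4me3, 24450 bp of H3K79me2 and 84650 bp of H3K36me3/H4K16ac. PLOD1, a lysyl hydroxylase, had 37000 bp of H3K36me3/H4K16ac, and PPIB, a prolyl isomerase, had 5850 bp of H3K9ac. SERPINH1, the chaperone that binds procollagen, had 750 bp of H3K4me3 and 0 bp of H3K27me3. Some of the list, such as P4HB and HSPA5, also serve general protein folding.

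The lists of genes that act on collagen after secretion are read against all genes, of which 49.3% had H3K4me3 alone, 25.2% H3K27me3 alone, 3.95% both and 21.5% neither. Of 13 processing and cross-linking genes, 5 had H3K4me3 alone (ADAMTS2, BMP1, LOXL1, LOXL3 and PCOLCE2), 3 had H3K27me3 alone (TLL1, TLL2 and LOXL2) and 5 had neither, among them LOX, a lysyl oxidase that cross-links fibrils. Of 10 receptors, 4 had H3K4me3 alone, including ITGB1, the shared integrin beta chain, with 40000 bp of H3K36me3/H4K16ac, and LAIR1, an inhibitory collagen receptor of leukocytes, with 2550 bp of H3K27ac. DDR1, DDR2 and ITGA11 had H3K27me3 alone, and GP6, ITGA1 and ITGA10 had neither. Of 6 collagenases and gelatinases, MMP1, MMP8, MMP9 and MMP13 had H3K27me3 alone, MMP2 H3K4me3 alone and MMP14 neither. The other basement membrane proteins had H3K4me3 alone at 5 of 15 starts (AGRN, HSPG2, LAMA5, LAMC1 and NID1), H3K27me3 alone at 7, both at LAMB1 and neither at LAMA3 and LAMB2. Of 11 collagen-binding matrix proteins, 8 had H3K27me3 alone, among them FN1 (65.2% of its span covered), TNC (93.4%) and FBN1 (69.0%), and SPARC, ASPN and LUM had neither. No member of that last list had H3K4me3.

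**Figure D5:**
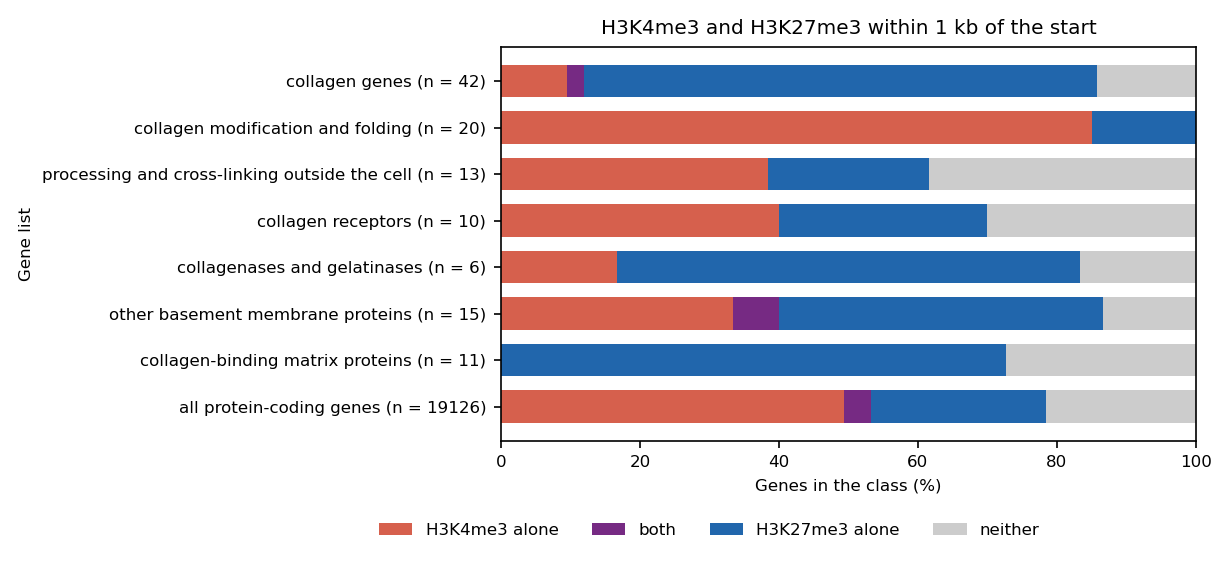
Percentage of genes by the marks within 1 kb of the start, for collagen genes, 6 lists of genes that modify, process, bind or cleave collagen or share its matrix, and all protein-coding genes. H3K27me3 alone (blue) takes 31 of 42 collagen genes, and H3K4me3 alone (red) 17 of 20 modification and folding genes, against 25.2% and 49.3% of all genes.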

How the data were processed

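Chromatin from KBM-7 cells was immunoprecipitated for 9 histone modifications, 1 library each, with 3 inputs. The authors deposited 1 list of called intervals (chromosome, start, end, mark) with no measured value per interval. Tools named in the submitters' processing notes are cutadapt, MACS and Bowtie2, with the build GRCh38. Versions, thresholds, filters and the input behind a call were not given in the sources used here, so depth and precision are unknown. Start positions mixed counting from 0 and from 1 and were brought to counting from 1 by their place on the 50 bp grid. H3K36me3 and H4K16ac shared all of their 45695 intervals. The list also holds 71741 intervals labelled H3K9me3, apart from those labelled H3K9ac; this 1 label names no sample analysed here and was not used. Inputs have no intervals of their own.

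Spans came from RefSeq gene records and listed starts from RefSeq promoters (GRCh38.p14). An overlap of 1 bp counted. "Alone" refers to H3K4me3 and H3K27me3 only, whatever else was called. The overlap code was tested on simulated data (2000 queries, 0 wrong). Python 3.11.15, numpy 2.4.6, pandas 2.3.3 and matplotlib 3.10.9 were used. With 1 library per mark no test was made. Genes were named by rule: members with H3K4me3 at the start or with H3K27ac, the 5 most covered per mark, the 5 largest H3K27me3 shares and, in lists, the most covered and the exceptions; the text gives a selection, and other members were named to account for the classes. Members, classes and lists were chosen with earlier results of these data known.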

Additional observations from a re-analysis of the deposited data

How the results depend on the processing

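Of 122 recomputed values, 87 stayed within 1.5 times the reported count or near the reported median, and 35 did not. No alternative brought H3K27me3 at collagen starts outside that range. Counts over the span and 5 kb changed as follows. With regions of at least the median width of their set, H3K4me3 fell to 5 genes, H3K9ac to 5, H3K4me1 to 10 and H3K79me2 to 2. With at least 500 bp covered, H3K4me3 fell to 5 and H3K79me2 to 3. Without a flank, H3K79me2 fell to 3 and H3K36me3/H4K16ac to 9. With a flank of 10 kb, H3K27ac rose to 2 and H3K79me2 to 10. Over the 22 genes with no other protein-coding gene within 5 kb, H3K27me3 was at 19, H3K36me3/H4K16ac at 4, H3K79me2 at 2, H3K4me1 at 9, H3K4me2 at 15, H3K27ac at 0, H3K9ac at 5 and H3K4me3 at 4; fewer genes were counted there. With other genes taken out, chosen after seeing the data, H3K79me2 fell to 3.

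At the start, wider regions left H3K4me3 at 3 genes, H3K9ac at 4 and H3K79me2 at 1; H3K4me3 alone fell to 2 and neither mark rose to 10. A window of 2.5 kb gave H3K79me2 at 4 and H3K36me3/H4K16ac at 3, and a window of 500 bp gave H3K79me2 at 1. With both annotated ends, H3K4me1 was at 4, H3K79me2 at 1 and H3K36me3/H4K16ac at 5. With listed starts only (30 genes, chosen after seeing the data), H3K4me3 was at 3, H3K4me1 at 0 and H3K79me2 at 1. The median H3K27me3 share was 92.5% over the first 10 kb of genes with a listed start and 49.4% with wider regions. Beyond the smaller numbers of genes or regions counted, the cause was not tested.

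No paired analysis was possible because each mark has 1 library and no test was made. Counts of 10 genes or fewer rest on a few short regions. The absence of a call is not the absence of a mark, since depth and thresholds are unknown.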
